A study of Schizosaccharomyces japonicus with 6 samples.

Results

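The 7 protein-coding genes described here lie partly or wholly within retrotransposons of the Tj2, Tj3, Tj5, Tj8, Tj9 and Tj10 families of the fission yeast Schizosaccharomyces japonicus. They are a list defined by position, drawn up with earlier results of these data known. They come from the table's 12 genes whose annotated span shares at least 1 base with a Tj1 to Tj10 element listed by the study. Of the 5 genes not on the list, 4 also overlap Tj11 to Tj21 elements, and SJAG_05050 shares 30 bases with a Tj5 element. The 7 genes are among the 5152 loci in the authors' table of polyadenylated RNA-seq, which holds 266 loci of Tj1 to Tj10 and 4886 other loci. RNA came from 3 libraries of wild-type cells and 3 libraries of a strain with dcr1-dis::natMX6 and mpe1-R77W, which the study names dcr1Δ*. Both strains also carry ade6(sj)-domE and ura4-D3 and are h- with mat-P2028. All cells were grown in YES medium at 32 °C. The dcr1Δ* strain is 1 isolate, a rare survivor of the loss of Dicer, so its alleles occur together and their effects cannot be told apart. The level of each locus used here is the authors' average over all 6 libraries of both strains, as the log2 of its CPM, a count scaled to library size. The values therefore say how much RNA was counted at a locus in the experiment as a whole, and not in which strain. With 1 average per locus there is no SD, no test between the strains and no depth of a single library.

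Tj elements are long terminal repeat (LTR) retrotransposons, which are transcribed into RNA that encodes Gag, protease, reverse transcriptase, RNase H and integrase and is copied back into DNA. A copy can be full-length, partial, or reduced to a solo LTR when its ends recombine. In many eukaryotes, Dicer cuts double-stranded RNA from such elements into small interfering RNAs that guide Argonaute to matching transcripts or direct heterochromatin to the elements. Gene annotation can place a gene model on an element's own reading frame. The annotation used here pairs the 7 locus tags with no gene names, so no function is given for them.

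By position, 3 genes lay in Tj9 or Tj5 elements from end to end. SJAG_06604, on supercont5.2 from 1831840 to 1832220 of the SJ5 assembly, sat inside the full-length element Tj9-2 and took up 6.42% of it. SJAG_06605, on supercont5.2 from 1848609 to 1848989, sat inside Tj9_partial_retrotransposon-2.3 and took up 22.7% of it. Both genes have a span of 381 bases. SJAG_05161, on supercont5.4 from 36661 to 37032, sat inside Tj5_partial_retrotransposon-4.1 and took up 18.5% of it. A further gene was covered completely, but by a pair of elements. SJAG_16458, on supercont5.2 from 3830986 to 3831504, shared 504 of its 519 bases with Tj3_partial_retrotransposon-2.1 and the last 15 with the solo LTR Tj9-type_LTR-2.1.

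The other 3 genes reached beyond the elements. SJAG_06637, on supercont5.4 from 67518 to 68072, shared 88.3% of its 555 bases with Tj10_partial_retrotransposon-4.2. SJAG_03765, on supercont5.2 from 3832986 to 3833673, was covered to 76.0% by a row of 3 elements. These were Tj5-type_LTR-2.1 over 16 bases, Tj8_partial_retrotransposon-2.4 over 386 bases and Tj2-type_LTR-2.2 over 121 bases, and the Tj8 and Tj2 loci lay inside the gene completely. SJAG_02928, on supercont5.1 from 1773333 to 1774100, lay between elements that reached into both of its ends. The solo LTR Tj10-type_LTR-1.1 covered 91 bases and Tj3_partial_retrotransposon-1.2 covered 130 bases, so 28.8% of the gene was element sequence. No gene of the 7 overlapped an element of Tj11 to Tj21.

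**Figure D1:**
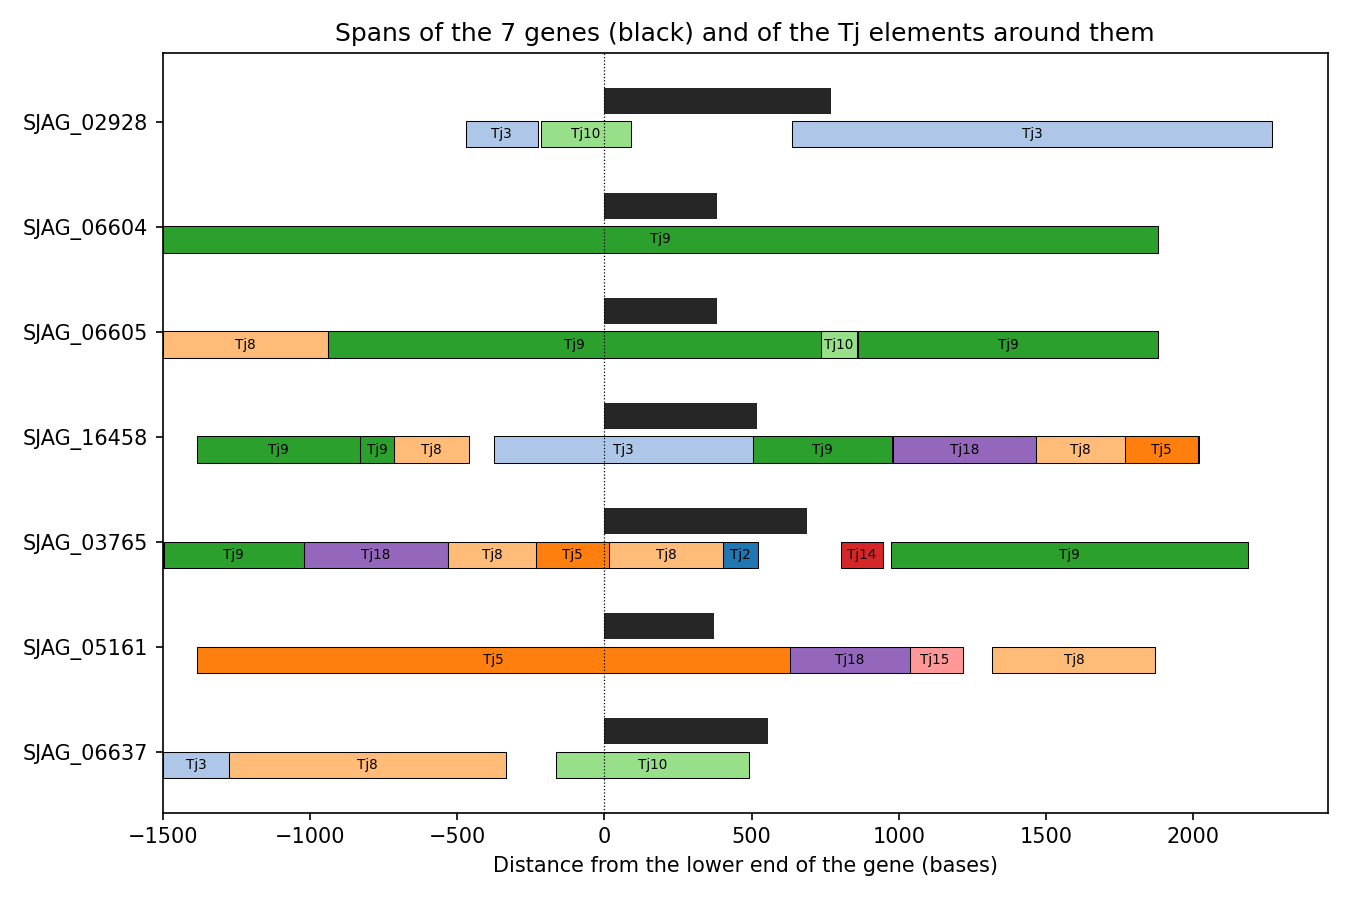
Each row shows 1 gene (black bar) above the Tj elements around it (coloured bars labelled by family), with the distance from the lower end of the gene in bases on the x axis and elements drawn up to 1500 bases from the gene. SJAG_06604, SJAG_06605 and SJAG_05161 lie within a single element, SJAG_16458 and SJAG_03765 lie in rows of abutting elements, and SJAG_02928 has elements only at its ends.

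Besides their place in elements, the genes shared a short span. All 7 were shorter than the median span of 1788 bases of the 4869 protein-coding genes with a position, and 6 of 7 had a span that is a multiple of 3, against 39.9% of those genes. A short span was not particular to the 7, whose median was 519 bases. The median was 925 bases for the 9 genes that overlap Tj11 to Tj21. For the 5 other genes that overlap Tj1 to Tj10 it was 959 bases. Within 10 kb of each of the 7 lay between 5 and 17 elements of Tj1 to Tj21, the fewest at SJAG_02928 and the most at SJAG_03765. The choice of the genes by overlap puts at least 1 element there. Their median of 10 elements equalled that of the 9 genes that overlap Tj11 to Tj21.

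The lowest level in the table was −3.99 log2 CPM (0.0628 CPM), at which 15 loci tied. These loci were taken as loci without reads. If the prior count in the averages was edgeR's default of 2, the libraries held on average about 31840491 counts, and a number of reads over the 6 libraries can be estimated for each locus. The intervals below are exact Poisson intervals (95%) around these estimates. They cover counting error only, and they are approximate because the authors split reads that map to several places into fractions.

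The 7 genes ran from −3.99 to 4.59 log2 CPM. SJAG_06637 was the highest, at 4.59 log2 CPM, or 24.1 CPM, with about 4590 reads over the 6 libraries. SJAG_02928 followed at 2.51 log2 CPM, or 5.71 CPM, with about 1080 reads (1016 to 1146). Both stood clear of the others by more than counting error.

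In the middle of the order were a pair of genes that lie in the same array of elements on supercont5.2, with 1 annotated gene between them. SJAG_16458 stood at −0.33 log2 CPM (0.795 CPM, about 140 reads, 118 to 165) and SJAG_03765 at −0.43 log2 CPM (0.740 CPM, about 129 reads, 108 to 154). Per kb and after subtraction of the lowest level, these reads are 1.41 CPM per kb (1.19 to 1.66) for SJAG_16458 and 0.984 CPM per kb (0.822 to 1.17) for SJAG_03765, so the intervals narrowly miss each other.

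The order of both genes inside Tj9 elements was not resolved at this depth. SJAG_06604 stood at −2.22 log2 CPM (0.215 CPM, about 29.1 reads, 19.5 to 41.8) and SJAG_06605 at −2.24 log2 CPM (0.212 CPM, about 28.5 reads, 19.0 to 41.0). They have the same length, and their levels differed by 1.58%. Both lie in copies of Tj9, so reads that map to several copies may have been split between them. Their levels may then not be separate measurements, which was not tested. SJAG_05161 was at the lowest level of the table and was taken to have no reads. A count of 0 over the 6 libraries allows up to 3 reads in all, or 0.0422 CPM per kb for a gene of its length. This limit is one-sided (95%), unlike the two-sided intervals of the other loci.

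**Figure D2:**
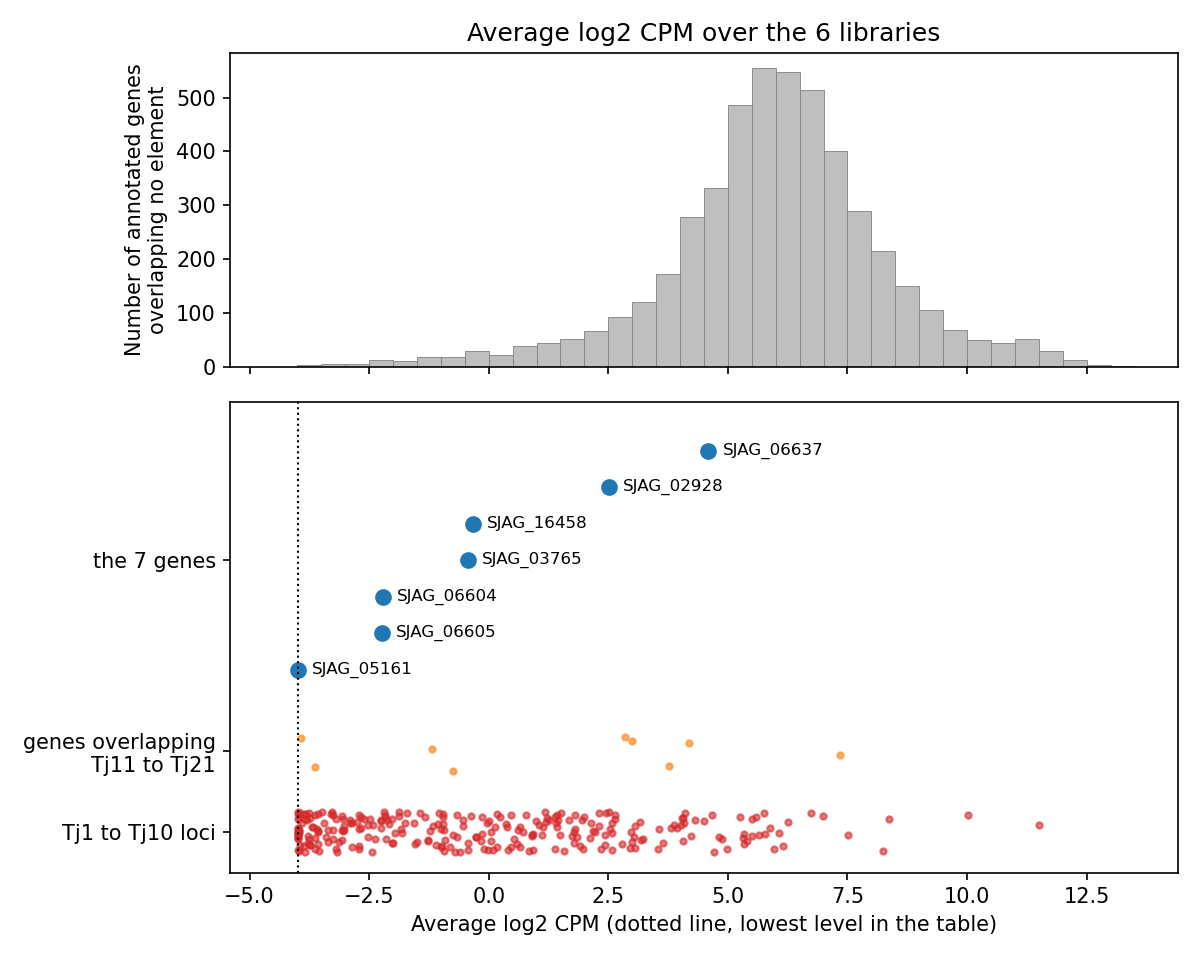
The upper panel counts the 4852 annotated genes that overlap no element by average log2 CPM in bins of 0.5, and the lower panel shows 1 point per locus for the 7 genes, the 9 genes overlapping Tj11 to Tj21 and the 266 Tj1 to Tj10 loci (vertical scatter is arbitrary). The 7 genes run from the lowest level of the table (dotted line, −3.99) to 4.59, all below the median of 6.05 of the genes in the upper panel.

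Per length, in CPM per kb of annotated span, 6 of the 7 genes were below the median of 33.4 CPM per kb of all placed genes. Their median was 1.08 CPM per kb, close to the median of 1.37 CPM per kb of the 266 Tj loci. SJAG_06637 was the exception at 43.4 CPM per kb, higher than 58.0% of placed genes. SJAG_02928 had 7.44 CPM per kb and was above 11.6% of placed genes. SJAG_16458 had 1.53, SJAG_03765 1.08, SJAG_06604 0.565 and SJAG_06605 0.556 CPM per kb. These 4 genes were each above 1.64% to 3.64% of placed genes. SJAG_05161 had no reads, so its 0.169 CPM per kb holds the prior count alone. Under 1 CPM, before division by length, were 5 of the 7 genes, 53.8% of the Tj1 to Tj10 loci and 2.16% of the 4852 genes that overlap no element. So were 4 of the 9 genes that overlap Tj11 to Tj21 and 2 of the 5 other genes that overlap Tj1 to Tj10. These last sets have 4 genes in common.

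Where a listed gene had a neighbour free of elements, the nearest such neighbour was higher per kb than the listed gene. These neighbours were themselves below the median of 33.4 CPM per kb of all placed genes, and below SJAG_06637 at 43.4 CPM per kb. Reads on bases shared with an element may be counted otherwise than reads of these neighbours, which was not tested. The nearest gene that overlaps no element lay 0.746 kb from SJAG_02928 and was at 31.6 CPM per kb (SJAG_02927), against 7.44 CPM per kb for SJAG_02928 itself. For SJAG_06604 it was SJAG_06603, 5.96 kb away, at 13.0 CPM per kb, and the same gene was the nearest for SJAG_06605, 22.7 kb away. For SJAG_16458 and SJAG_03765 it was SJAG_03771, at 27.8 CPM per kb. No gene free of elements on supercont5.4 had a level in the table, so SJAG_05161 and SJAG_06637 have no such neighbour.

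Each gene was then compared with the Tj locus that it lies in, taken as the locus with the largest overlap, in CPM per kb. For featureCounts, the paper names only the settings that count multi-mapping reads as fractions. It names none for reads on overlapping annotations, nor for the strand. A gene and its Tj locus may therefore share or divide the reads on their common bases, or both may lose them. The part of this counting in the differences was not tested. All differences below are between averages over the same 6 libraries and have no replicate check.

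The genes inside Tj9 elements were far lower than the elements around them. SJAG_06604 had 0.565 CPM per kb and Tj9-2 had 6.44 CPM per kb, a log2 difference of −3.51, or 11.4-fold lower. SJAG_06605 had 0.556 CPM per kb and Tj9_partial_retrotransposon-2.3 had 27.1 CPM per kb, a log2 difference of −5.61, or 48.8-fold lower. Reads that map to several copies of a family were split among them, so the levels of single Tj loci, and of genes inside them, may not be separate measurements of each copy. How many reads this touched was not tested.

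SJAG_16458 was also below its element. It had 1.53 CPM per kb and Tj3_partial_retrotransposon-2.1 had 5.19 CPM per kb, a log2 difference of −1.76, or 3.39-fold lower. The solo LTR at its other end, Tj9-type_LTR-2.1, was at 13.1 CPM per kb. With both loci summed, the log2 difference was −2.38.

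Per kb, the listed genes with sequence of their own outside the elements were above their Tj loci. SJAG_06637 had 43.4 CPM per kb, while Tj10_partial_retrotransposon-4.2, which covers most of it, had 0.211 CPM per kb. The log2 difference was 7.68, or 205-fold. The Tj10 locus had about 14.5 reads over the 6 libraries (7.99 to 24.1), so the size of this fold is uncertain. With the lowest level of the table subtracted from both, the log2 difference was 8.55, and only 65 bases of the gene lie outside the element.

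SJAG_03765 had about 129 reads, and the Tj8 and Tj2 loci that lie inside it were both at the lowest level of the table. After subtraction of that level, the reads counted for the gene were at least 20.2-fold higher per kb than those for Tj8_partial_retrotransposon-2.4. They were at least 6.33-fold higher than those for Tj2-type_LTR-2.2. These bounds take the lower end of the gene's interval and 3 reads over the 6 libraries for a locus without reads. They cover counting error only and are not bounds on RNA. If reads on shared bases were left uncounted, both Tj loci would have no reads at any RNA level. Tj5-type_LTR-2.1, at the edge of the gene, had about 3.50 reads (0.846 to 9.51). Of the reads counted for the gene or for these Tj loci, nearly all were counted for the gene. Reads on shared bases may have been counted for neither. The gene has 165 bases outside the elements, and where in its span the reads fell was not tested.

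SJAG_02928, with elements only at its ends, had the smallest difference of the 5 pairs in which both loci had reads. The pair of SJAG_05161, described next, could differ by less. SJAG_02928 had 7.44 CPM per kb and Tj3_partial_retrotransposon-1.2 had 4.29 CPM per kb, a log2 difference of 0.79, or 1.73-fold higher. Without division by length the direction turns, to a log2 difference of −0.55, because the Tj3 locus is the longer of them. Tj10-type_LTR-1.1 at the other end had about 8.02 reads (3.47 to 15.8).

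For SJAG_05161 the order could not be resolved. The gene had no reads, which allows up to 0.0422 CPM per kb, and Tj5_partial_retrotransposon-4.1 had about 19.1 reads, or 0.0498 CPM per kb after subtraction of the lowest level (0.0300 to 0.0776). The intervals overlap.

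**Figure D3:**
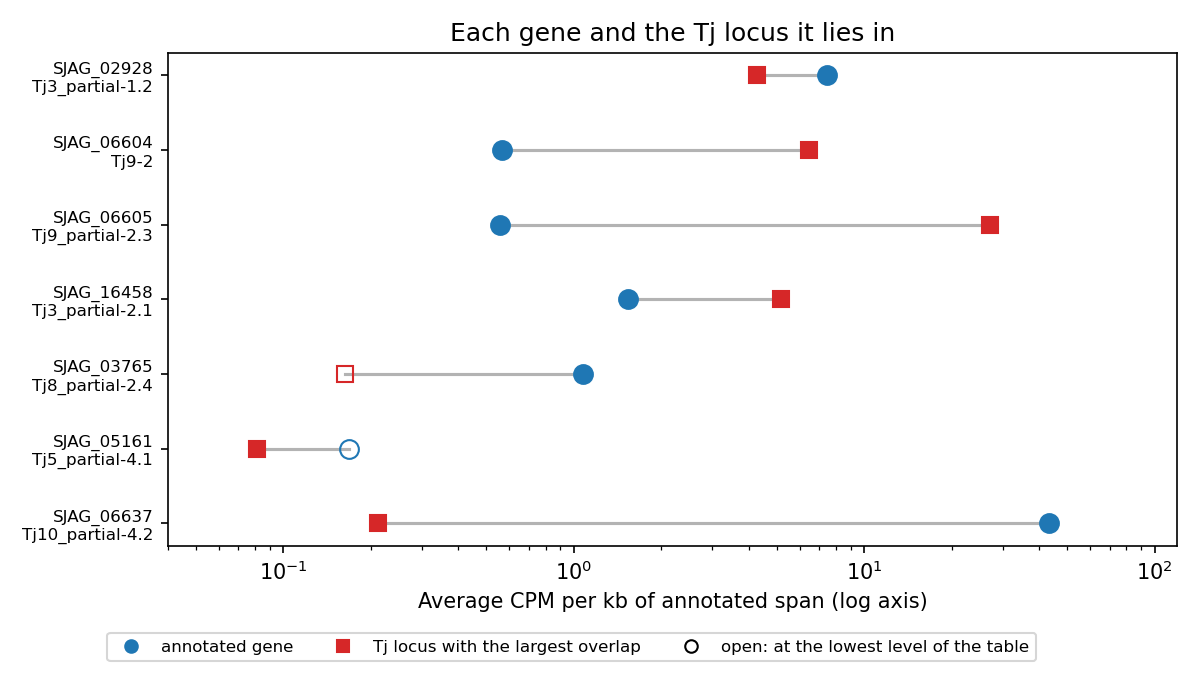
Average CPM per kb of annotated span (log axis) for each gene (blue circles) and the Tj locus that shares the most bases with it (red squares), joined by a line, with open symbols for loci at the lowest level of the table, whose position holds the prior count alone. SJAG_06604, SJAG_06605 and SJAG_16458 lie left of their Tj loci, and SJAG_02928, SJAG_03765 and SJAG_06637 lie right of them.

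The direction was then set beside how the spans were nested, a comparison chosen after the values were seen. Of the 4 listed genes that elements covered completely, 3 were below their Tj locus and the order of SJAG_05161 was unresolved. All 3 listed genes with bases of their own outside elements were above theirs per kb, but SJAG_02928 was below without division by length. The other genes overlapping Tj1 to Tj10 were compared only without division by length. SJAG_05352 was below the Tj5 locus with its largest overlap (−3.93 against −3.78 log2 CPM), both near the lowest level. SJAG_03766, SJAG_04448, SJAG_06639 and SJAG_05050 were above theirs. All 18 pairs of an annotated gene and a Tj1 to Tj10 locus that share bases were then counted. In the 3 pairs with the Tj locus completely inside the gene, that locus was at the lowest level of the table. This was so in 0 of the 12 pairs that overlapped in part, and for 4.51% of all 266 Tj loci. Of the 3 genes that lay inside 1 element completely, 1 was at the lowest level. These are counts of few pairs, some of which share a gene or a Tj locus. Reads of the same place may be counted for either locus of a pair or for neither. If reads on shared bases were left uncounted, a Tj locus wholly inside a gene would have no reads at any RNA level. The contrast of nested with partial loci therefore does not say that the nested loci made less RNA.

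Compared with the 9 genes that overlap Tj11 to Tj21 elements, the 7 genes had a lower median and an overlapping range. The 9 genes ran from −3.93 to 7.34 log2 CPM with a median of 2.86, and the 7 genes from −3.99 to 4.59 with a median of −0.43. Per length, the medians were 6.56 and 1.08 CPM per kb. The paper annotated Tj12 to Tj21 starting from regions with changed small RNA and raised mRNA coverage in the dcr1Δ* strain. Genes that overlap these elements were thus in part chosen by RNA counted in the study, which can raise their median. The difference was not tested.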

How the data were processed

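The members and comparisons were chosen with earlier results of these data known. The authors used Trim Galore, STAR with the SJ5 assembly, featureCounts with multi-mapping reads split into fractions, and edgeR. The deposited value used here is the average log2 CPM over 6 libraries. The other 4 columns of the table hold the authors' own comparison of the strains (fold change, F statistic, p-value and FDR) and were not used. Element positions came from the study's list, with starts counted from 0, and gene positions from the RefSeq table of SJ5. This table gives no contigs, so they were read from 6 runs of rising positions, which placed 4869 of 4886 other loci. Genes and Tj1 to Tj10 elements shared 4458 bases in this order. Of 719 other orders, 1 shared fewer (4427), and it put genes that reach position 3833673 on supercont5.6, whose last element ends at 74816. All loci summed to 1.00218e+06 CPM. CPM was divided by the annotated span, introns included, with no low-value filter. The named genes were the 7 genes, the Tj loci that overlap them and the nearest genes free of elements. Interval and length calculations were tested on simulated data. Python 3.11.15, numpy 2.4.6, scipy 1.17.1 and matplotlib 3.10.9 were used. Ranks, length, overlap and the lowest level were varied.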

Additional observations from a re-analysis of the deposited data

How the results depend on the processing

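Rank by CPM among all loci was compared with other rankings. The percent of loci below each gene was 10.9% for SJAG_02928, 2.29% for SJAG_06604, 2.27% for SJAG_06605, 4.54% for SJAG_16458, 4.33% for SJAG_03765, 0% for SJAG_05161 and 25.4% for SJAG_06637. Among loci other than Tj it was 7.31% for SJAG_02928, 0.634% for SJAG_06604, 0.614% for SJAG_06605, 2.03% for SJAG_16458, 1.86% for SJAG_03765 and 22.0% for SJAG_06637. By CPM per kb, a ranking chosen after seeing the data, it was 15.1%, 3.35%, 3.33%, 6.08%, 5.14%, 0.467% and 59.98% in the order of the first list. The 0.467% of SJAG_05161, which had no reads, comes from the prior count divided by its span. Leaving out loci at the lowest level, which are 0.291% of all loci, could move a rank only slightly, so it is no check of the ranks. The ranks stayed within their counting intervals (Wilson, 95%), and SJAG_05161 had no rank under this setting.

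For the 5 log2 differences between a gene and its Tj locus, 15 of 22 values under the alternatives moved by less than 1.5-fold. This count is no measure of stability, because some settings could hardly move a value. Counting element starts from 1 changes the length of an element by 1 base only. Summing all overlapping loci changes nothing for SJAG_06604, SJAG_06605 and SJAG_06637, which overlap 1 element each. Without division by length, SJAG_02928 turned from 0.79 to −0.55, and the differences were −7.47 for SJAG_06604, −7.75 for SJAG_06605 and −2.52 for SJAG_16458. With all overlapping loci summed it was −2.38 for SJAG_16458. For SJAG_06637 it was 8.55 with the lowest level subtracted and 8.79 with the lengths outside the overlap. That last setting gave no value for the 3 genes with too few bases left. Asking for 50% of a gene to be covered left 7 of 12 overlapping genes, of which 6 are among the 7 described. With the lowest level subtracted, SJAG_05161 fell to 0 CPM. Exon lengths and the share of repeated sequence words were not run, since no genome or exon annotation was used here. No paired analysis was possible because no values per library were used, and for the same reason no replicate was left out. The estimates of reads rest on the assumed prior count of 2.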

Other observations

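The 5 other annotated genes that shared bases with Tj1 to Tj10 elements ran from −3.93 to 3.76 log2 CPM, with SJAG_05050, which shared 3.13% of its span, at −1.94. Of the 15 loci at the lowest level of the table, 12 were Tj loci and 3 were other loci, and SJAG_05161 is 1 of these 3.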
